A study of Bos taurus with 8 samples.

Results

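LYVE1, PROX1, PDPN, CCL21, RELN and MMRN1 are 6 genes commonly used to recognise lymphatic endothelium, and they were followed here through bovine muscle and the cultures derived from it. They were taken by gene symbol, and each matched 1 row of the 21880 genes in the count tables: PROX1 (ENSBTAG00000010978), LYVE1 (ENSBTAG00000000802), PDPN (ENSBTAG00000001788), CCL21 (ENSBTAG00000010161), RELN (ENSBTAG00000003658) and MMRN1 (ENSBTAG00000010285). The donors were 10 Belgian Blue cattle, 5 calves and 5 adults, of which 7 were female and 3 male, and the cells were freed from the semitendinosus muscle with collagenase. Timepoint 1 (muscle) holds unsorted cells straight after isolation, and Timepoint 2 (passage 0) holds unsorted cells kept for 72 h in serum-free growth medium on fibronectin, each donor in its own vessel. The donors were pooled before capture, so that each timepoint is 1 library of single cells, and the effect of culture and of the library cannot be told apart. Donor 3 has cells in muscle only.

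Lymphatic endothelial cells (LECs) line the vessels that return tissue fluid and immune cells to the blood. They arise from venous endothelium when PROX1, a homeobox transcription factor, is switched on, and they keep that factor to hold their identity. The other members act at the surface or outside the cell: LYVE1 binds hyaluronan, PDPN (podoplanin) is a mucin-type glycoprotein that binds CLEC-2 on platelets, CCL21 is the chemokine that draws CCR7-bearing dendritic and T cells into lymphatics, RELN (reelin) is a secreted matrix glycoprotein, and MMRN1 (multimerin) is a secreted protein that binds coagulation factor V. Some of them are also made elsewhere: LYVE1 by resident macrophages, PDPN by fibroblasts and PROX1 by muscle cells.

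The study's annotation names 81 LECs and 1166 vascular endothelial cells (VECs) among 4395 muscle cells, and 168 LECs and 831 VECs among 9591 cells at passage 0. No cell is annotated as a LEC at passages 2, 5 and 8. The labels fitted markers other than the members: FLT4, the VEGF-C receptor, stood at 341 CPM (UMIs per 1000000 UMIs of all cells of the group) in muscle LECs and 3.18 in muscle VECs, while VWF stood at 47.5 and 540 and FLT1 at 43.0 and 540. PECAM1, common to both endothelia, was at 570 in LECs and 868 in VECs. The median LEC held 4866 UMIs in muscle and 9436 at passage 0. Because the annotation was built from clusters of the same counts, the contrast of LECs with VECs or with other cells is given as a description without a test.

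In muscle every member was higher in LECs than in VECs, and no donor's LECs overlapped with any donor's VECs. The levels are UMIs summed per donor over at least 10 cells and scaled to CPM with TMM factors. This leaves 4 donors for muscle LECs (donors 4, 7, 8 and 10) and 10 for muscle VECs. At passage 0 it leaves 7 for LECs (1, 2, 4, 6, 7, 8 and 9) and 9 for VECs. Among these LEC donors the adult in muscle was donor 8, and the adults at passage 0 were donors 1, 6, 8 and 9. The males were donors 8 and 10 in muscle and 6 and 8 at passage 0. Age and sex were thus not balanced between the stages. All 6 members stood above VECs without overlap and by over 1 on the log2 scale, as did 3.78% of all genes tested in muscle, but nothing is read from that count. The members passed the low-count filter (41.6 CPM in at least 4 donors) only through the LECs, where they are high, and no VEC donor reached its limit. At passage 0 the 6 were again above VECs in every donor, as were 2.66% of all genes tested, but only 3 passed the filter there, PROX1 and MMRN1 through LECs alone and PDPN through each type.

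PROX1 in muscle LECs was 234, 223, 161 and 233 CPM in donors 4, 7, 8 and 10, with a mean of 213 ± 35.0 (SD, n = 4), beside 2.42 ± 2.56 in VECs (SD, n = 10). Donor 8 lay below the other 3 donors, which were nearly level, but the counts were only 15, 16, 11 and 16 UMIs in that order. LYVE1 was 1265, 2673, 2921 and 1628 CPM, with a mean of 2122 ± 800.1, beside 6.50 ± 9.26 in VECs. Donors 7 and 8 carried the higher levels of LYVE1, and also of the secreted genes CCL21 and MMRN1, while RELN was highest in donor 7 and nearly level in donors 8 and 10. CCL21 was 2609, 5360, 8559 and 4113 CPM, with a mean of 5160 ± 2530, beside 1.05 ± 2.40 in VECs.

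RELN was 172, 446, 321 and 320 CPM in LECs, with a mean of 315 ± 112, and had no UMI in any VEC of muscle. MMRN1 was 1906, 4497, 4966 and 3197 CPM, with a mean of 3641 ± 1378, beside 2.76 ± 3.61 in VECs. PDPN was 109, 181, 190 and 291 CPM, with a mean of 193 ± 74.6, beside 3.27 ± 2.20 in VECs. Donor 4 was lowest for LYVE1, CCL21, RELN, MMRN1 and PDPN and highest for PROX1, and donor 10 was highest for PDPN.

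**Figure D1:**
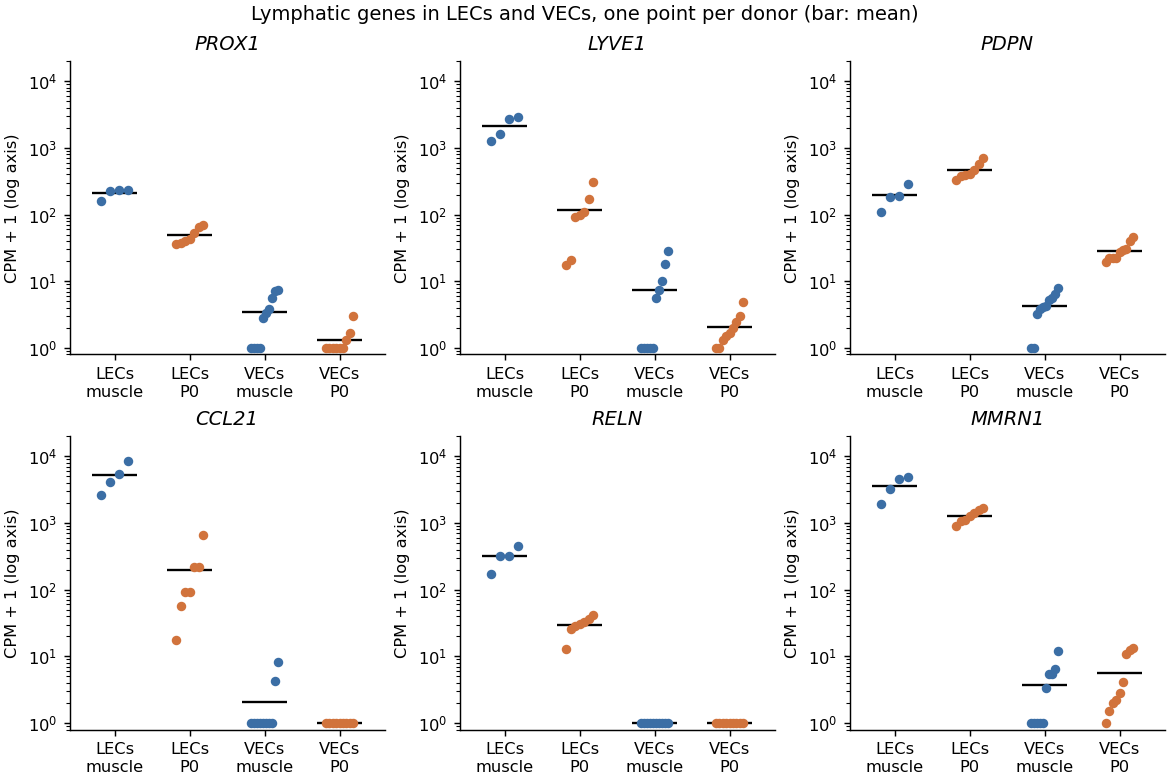
CPM + 1 on a log axis for each member in LECs and VECs of muscle and passage 0 (P0), with 1 point per donor and a bar at the mean. LECs lie above VECs in every panel, and in LECs every donor at P0 lies below every muscle donor except for PDPN, where every P0 donor lies above, among donors with at least 10 cells.

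Counted over all cells, the ratio of LECs to VECs in muscle was 80.1-fold for PROX1 (95% exact binomial interval 44.0 to 160), 491-fold for LYVE1 (320 to 796), 58.1-fold for PDPN (32.9 to 111), 3904-fold for CCL21 (1893 to 9720) and 1124-fold for MMRN1 (680 to 2013). With 0 UMIs in VECs and a floor of 3 counts over the group, RELN was at least 447-fold higher in LECs. These intervals cover counting error only. At passage 0 the ratios were 154-fold for PROX1 (58.2 to 577), 140-fold for LYVE1 (69.4 to 329), 17.0-fold for PDPN (14.96 to 19.4) and 286-fold for MMRN1 (218 to 383), and at least 744-fold for CCL21 and at least 135-fold for RELN. The smallest ratio at both stages was that of PDPN, although its interval overlapped with that of PROX1 in muscle.

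Across the 11 annotated types of muscle the members differed in which type came after LECs. PROX1 was next highest in satellite cells (SCs), the muscle stem cells, at 43.5 CPM without TMM factors (donor range 25.1 to 92.1, n = 10) beside 235 in LECs, and then in monocytes/macrophages at 7.36. The donor ranges of SCs and of the 4 donors with at least 10 LECs (167 to 267) did not overlap, but donor 6 with 9 LECs lay within the SC range at 44.2. LYVE1 was next highest in monocytes/macrophages at 786 (donor range 293 to 1201, n = 10) beside 2520 in LECs (1443 to 3037 over the same 4 donors), without overlap except for donor 2, whose 3 LECs had no LYVE1 UMI, and it had no UMI in any SC. PDPN was next highest in fibro-adipogenic progenitors (FAPs), at 90.8 (51.7 to 196, n = 10) beside 199 in LECs (125 to 297), and here the donors overlapped.

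CCL21, RELN and MMRN1 had no such second type with many UMIs. CCL21 was at most 2.98 CPM outside LECs, and RELN had 5 UMIs in all other cells of muscle together. MMRN1 reached 122 in neutrophils, but those were 12 UMIs of 1 cell of 51. In FAPs, 30 of 32 MMRN1 UMIs and 12 of 23 CCL21 UMIs lay in 2 of 1231 cells, the only cells of muscle outside the LEC label with at least 3 of PROX1, LYVE1, CCL21, RELN and MMRN1. These 2 cells were picked out after their values were seen, and whether each holds RNA of more than 1 cell was not tested.

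**Figure D2:**
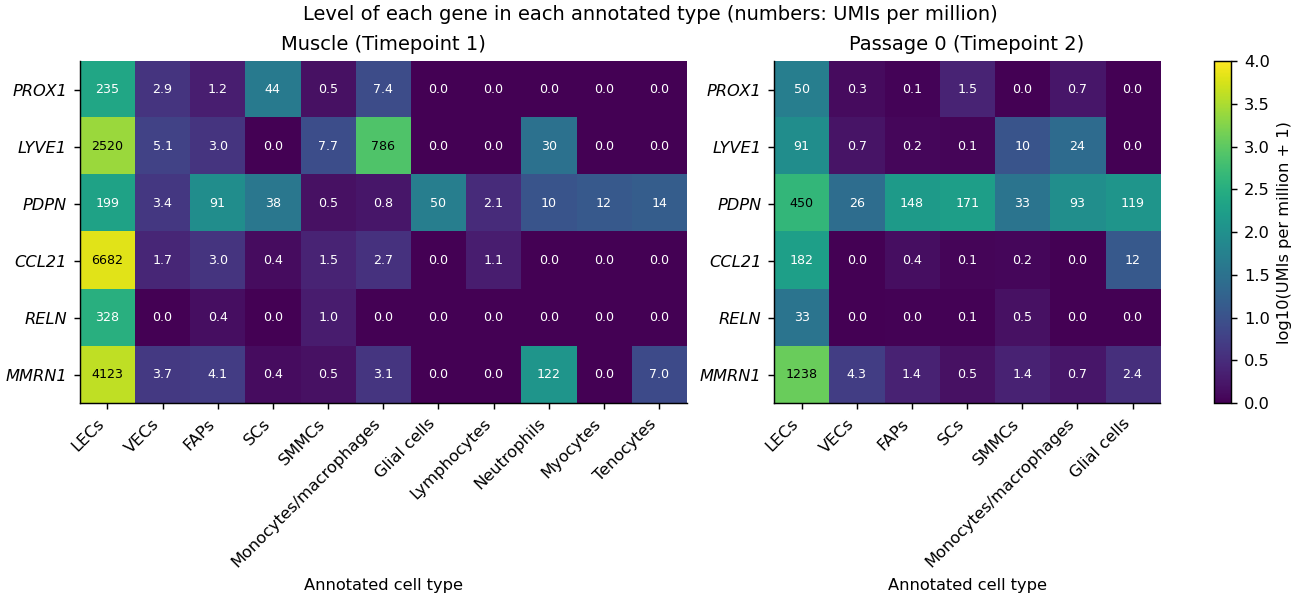
Level of each member in each annotated type of muscle (left) and passage 0 (right), as CPM of all cells of the type, coloured on a log10 scale. LECs are highest in every row at both stages, with LYVE1 also in macrophages, PROX1 also in SCs, and PDPN in most types at passage 0.

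After 72 h in culture 5 members fell in LECs and PDPN rose. Fits across all genes with edgeR's quasi-likelihood test called a gene at an adjusted p below 0.05 and a log2 fold change beyond 1 in either direction. They called 5 of 6 members lower, where 14.8% of the 3034 genes tested were lower, and 1 of 6 higher, where 14.8% were higher. The median log2 fold change was -2.88 over the 6 members and 0.06 over all genes tested. All 6 members passed the low-count filter (57.1 CPM in at least 4 donors), but RELN and PROX1 passed only through muscle, the stage where they are high, so that the count of 5 is partly set by the filter and stands as a description. The other 4 would have passed through either stage. The cell labels at both stages rest on the same counts.

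CCL21 at passage 0 ran from 16.7 CPM in donor 2 to 655 in donor 6, with a median of 91.3, and every donor lay below the lowest muscle donor. The log2 fold change was -5.16 (SE 0.67, adjusted p = 0.000177). LYVE1 ran from 16.7 to 304 with a median of 97.5 CPM, a log2 fold change of -4.58 (SE 0.55, adjusted p = 0.000103). Donor 6 was highest for both genes and donor 2 lowest for both, with 3 UMIs of each.

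RELN ran from 11.7 (1 UMI) to 40.1 CPM with a median of 29.3, a log2 fold change of -3.51 (SE 0.28, adjusted p = 4.13e-11). It passed the filter only through muscle, where it is high, as did PROX1, so both falls stand as descriptions. PROX1, the transcription factor, ran from 35.1 to 69.6 with a median of 42.4 CPM, a log2 fold change of -2.26 (SE 0.28, adjusted p = 1.48e-07), and with pseudobulks of at least 5 cells it no longer passed the filter. MMRN1 fell least of these, running from 900.2 to 1649 with a median of 1260 CPM, a log2 fold change of -1.70 (SE 0.25, adjusted p = 0.000297). None of these 3 genes overlapped between muscle and passage 0 among donors with at least 10 LECs. Read over all donors with LECs, in CPM without TMM factors, RELN and PDPN still did not overlap. PROX1 did, at 44.2 in the 9 LECs of muscle donor 6 beside 65.8, 70.2, 52.0 and 112 at passage 0 in donors 1, 7, 8 and 10. MMRN1 did too, at 1677 in the 3 LECs of muscle donor 2 beside 1747 and 2572 at passage 0 in donors 6 and 10, and at 2174 in the 13 LECs of muscle donor 4, which also lay below passage 0 donor 10 with its 5 LECs. CCL21 and LYVE1 overlapped through the 3 cells of muscle donor 2.

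PDPN ran from 329 to 713 CPM at passage 0 with a median of 400.2, above every muscle donor, a log2 fold change of 1.04 (SE 0.25, adjusted p = 0.00211). The size sits at the fold limit: it was 0.97 without donor 1, 0.94 without donor 4, 0.94 without donor 6, 0.98 without donor 8 and 0.98 with pseudobulks of at least 5 cells, which ends the call by size although the adjusted p stayed between 0.000185 and 0.0147. With donor as a block, which keeps the 3 donors with at least 10 LECs at both stages, all 6 members kept their call.

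**Figure D3:**
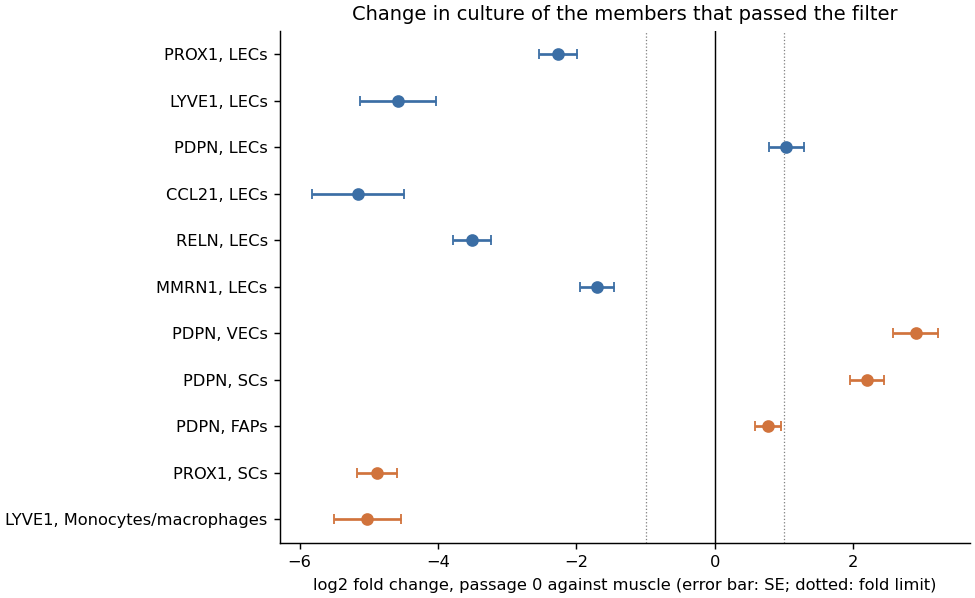
Log2 fold change at passage 0 against muscle for the members that passed the filter in each type, with SE as error bars, a solid line at 0 and dotted lines at the fold limit of 1 in either direction. Blue points are LECs and orange points other types: 5 members lie left of the limit in LECs, and PDPN lies right of 0 in all 4 types shown.

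Genes listed as markers of other cells moved in LECs as well. The 6 FAP markers summed to 124 CPM in muscle LECs (donor range 29.7 to 143) and 719 at passage 0 (385 to 1742), and DCN, a matrix proteoglycan of FAPs, rose by 3.68 on the log2 scale (adjusted p = 0.0114). DCN and COL3A1, the 2 FAP markers tested, passed the filter only through passage 0, where they are high, so the rise of DCN stands as a description. The 8 macrophage markers summed to 170 in muscle (35.6 to 228) and 22.7 at passage 0 (12.7 to 62.0), with CSF1R, PTPRC, TYROBP and C1QA at 0 at passage 0, and MRC1 fell by 2.20. By donor means MRC1 was the largest of the 8 in LECs, at 79.4 CPM in muscle and 23.7 at passage 0. In VECs MRC1 was 0.520 and 0, and whether the LECs themselves made it was not tested. CD68 came next in muscle LECs, at 18.3 CPM beside 20.7 in muscle VECs. The 6 muscle fibre genes summed to 499.5 and 0.541, and ACTA1 was at least 99.2-fold lower at passage 0. The part of FAP, macrophage and fibre RNA in the members' changes was not tested.

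PDPN rose in VECs and SCs too. In VECs it went from 3.27 ± 2.20 (SD, n = 10) to 27.9 ± 9.07 CPM (SD, n = 9), from 0 to 6.93 in muscle and from 18.3 to 45.7 at passage 0, without overlap. The log2 fold change was 2.91 (SE 0.32, adjusted p = 5.38e-09), and 15.6% of genes tested in VECs were called higher. In SCs it went from 37.6 ± 17.9 (n = 10) to 183 ± 51.3 CPM (n = 9), a log2 fold change of 2.20 (SE 0.25, adjusted p = 4.52e-08), where 15.8% of genes were higher. In both types PDPN passed the filter only through passage 0, where it is high, so both rises stand as descriptions. In VECs it no longer passed without donor 4, without donor 10 or after thinning to the smallest UMI total. The summed FAP markers in SCs were 1150 CPM in muscle (donor range 434 to 1957) and 2582 at passage 0 (1847 to 2935), in VECs they were 499 and 535, and their part in the change of PDPN was not tested. FAPs went from 96.9 ± 40.1 (n = 10) to 152 ± 32.8 CPM (n = 9) with overlapping donors, a log2 fold change of 0.77 (SE 0.19, adjusted p = 0.000887) that is under the fold limit and was 0.38 (adjusted p = 0.0759) after thinning to the smallest UMI total, so that no member was called among the 20.9% of genes higher in FAPs.

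In monocytes/macrophages PDPN had 2 UMIs in muscle and 124 at passage 0, or 97.6 ± 33.7 CPM (SD, n = 7), and it did not pass the filter there, while the summed FAP markers went from 357 to 2196 CPM. DCN alone went from 31.7 to 354 CPM in LECs, from 249 to 256 in VECs, from 201 to 1139 in SCs, from 131 to 1062 in monocytes/macrophages, from 167 to 584 in smooth muscle and mesenchymal cells (SMMCs) and from 18950 to 2867 in FAPs. Between muscle and passage 0 the ratio of PDPN to DCN UMIs went down in LECs and SCs and up in the other types. In muscle it was 6.29 in LECs (95% exact interval 3.56 to 12.0), 0.190 in SCs (0.153 to 0.234), 0.0138 in VECs (0.00750 to 0.0232), 0.00592 in monocytes/macrophages (0.000714 to 0.0215), 0.00479 in FAPs (0.00444 to 0.00516) and 0.00307 in SMMCs (7.74e-05 to 0.0172). At passage 0 it was 0.0518 in FAPs (95% exact interval 0.0510 to 0.0525), 0.0567 in SMMCs (0.0487 to 0.0656), 0.0873 in monocytes/macrophages (0.0721 to 0.105), 0.103 in VECs (0.0917 to 0.116), 0.150 in SCs (0.147 to 0.154) and 1.27 in LECs (1.14 to 1.41). The UMIs are pooled over all cells and donors of a type, so these intervals cover counting error only and not the spread between donors, and those of SCs overlapped between the stages.

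In the main fit the rise of PDPN was smaller in LECs than in VECs, with a difference of changes of -1.68 on the log2 scale (SE 0.45, 95% interval -2.56 to -0.80, adjusted p = 0.0115), where 2.7% of genes were called lower. Muscle VECs held only 14 PDPN UMIs in 1166 cells. The difference no longer passed when donor entered the model as a block (-1.36, adjusted p = 0.105), with all pseudobulks thinned to the smallest UMI total (-0.73, adjusted p = 0.499) and without donor 10 (-1.50, adjusted p = 0.0707). The block keeps only donors with at least 10 cells of a type at both stages, 3 for LECs and 9 for VECs. It took the genes called in this comparison from 413 to 253. The block and the loss of donors were not told apart. MMRN1 had only 68 UMIs in all VECs of both stages, and its difference of -1.78 (SE 0.76) did not pass (adjusted p = 0.155).

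PROX1 in SCs and LYVE1 in macrophages fell at the same step. PROX1 in SCs went from 46.2 ± 19.4 (SD, n = 10) to 1.52 ± 0.767 CPM (SD, n = 9), a log2 fold change of -4.88 (SE 0.29, adjusted p = 1.72e-13), where 18.5% of genes tested were lower. LYVE1 in monocytes/macrophages went from 703 ± 278 (n = 10) to 22.9 ± 22.4 (n = 7), a log2 fold change of -5.02 (SE 0.49, adjusted p = 1.16e-07), where 20.4% of genes were lower. No donor overlapped in either case. Both genes passed the filter only through muscle, where they are high, so both falls stand as descriptions. After thinning to the smallest UMI total PROX1 in SCs no longer passed the filter and had no test. Other markers moved in these cells too: the 6 SC markers in SCs summed to 1512 CPM in muscle and 114 at passage 0 and the 6 fibre genes to 609 and 1.08, and the 8 macrophage markers in monocytes/macrophages summed to 13580 and 3001. Their part in the falls was not tested. In SMMCs no member passed the filter.

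Differences of change against these types were added after the results were seen. PROX1 fell less in LECs than in SCs, by 2.74 on the log2 scale (SE 0.37, adjusted p = 8.12e-07), where 7.23% of genes were called higher. In the fits of LECs and of SCs alone PROX1 passed the filter only through muscle, where it is high. At passage 0 the SCs held 64 PROX1 UMIs in 2282 cells, so this difference stands as a description. PDPN rose less in LECs than in monocytes/macrophages, by a difference of -5.00 (SE 0.54, adjusted p = 3.92e-09), where 6.92% of genes were called lower, but this rests on 2 UMIs in muscle macrophages. The fall of LYVE1 in LECs and macrophages was not told apart (difference 0.48, 95% interval -1.07 to 2.02, adjusted p = 0.796). PDPN did not pass against SCs (-0.996, interval -1.86 to -0.14, adjusted p = 0.131), although it did with DESeq2 and with at least 5 cells. Against FAPs it did not pass either (0.52, interval -0.25 to 1.28, adjusted p = 0.451). The comparisons share the same LECs.

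The shares of LECs with a UMI moved the same way once each cell was thinned to 2000 UMIs, which left out 2 LECs of muscle and none of passage 0. LYVE1 was found in 72.2% of muscle LECs (95% exact binomial interval 60.9 to 81.7) and 14.9% at passage 0 (9.87 to 21.2), CCL21 in 63.3% (51.7 to 73.9) and 15.5% (10.4 to 21.9), and RELN in 40.5% (29.6 to 52.2) and 8.33% (4.63 to 13.6). PROX1 was found in 40.5% (29.6 to 52.2) and 12.5% (7.91 to 18.5). MMRN1 stayed in most LECs, at 88.6% (79.5 to 94.7) and 77.4% (70.3 to 83.5), with overlapping intervals, and PDPN went from 34.2% (23.9 to 45.7) to 54.2% (46.3 to 61.9). Without thinning the shares were 76.5% and 29.2% for LYVE1, 71.6% and 27.4% for CCL21, 61.7% and 28.6% for RELN, 58.0% and 36.9% for PROX1, 95.1% and 94.1% for MMRN1 and 54.3% and 91.7% for PDPN.

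Cell types that should lack the genes gave the background at the same depth. LYVE1, RELN and MMRN1 were in 0 of 601 SCs of muscle, which with a floor of 3 counts allows a share of up to 0.499%, and with CCL21 in 0 of 2279 SCs at passage 0, which allows up to 0.132%. CCL21 was in 0.166% of muscle SCs. PROX1 was in 1.25% of muscle macrophages and 0 of 136 at passage 0, which allows up to 2.21%. SCs carried PDPN themselves, in 6.82% of cells in muscle and 29.2% at passage 0, and VECs in 0.361% and 5.92%. The median SC held 3861 UMIs in muscle and 18203 at passage 0.

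Single LECs carried several members together in muscle and fewer at passage 0. Of 79 thinned muscle LECs, 53 (67.1%) had at least 3 of PROX1, LYVE1, CCL21, RELN and MMRN1, 11 had all 5 and 3 had none. Of 168 thinned LECs at passage 0, 17 (10.1%) had at least 3, 0 had all 5 and 31 had none. LYVE1 and CCL21 were found together in 45 of 79 muscle LECs, with 12 holding LYVE1 alone, 5 CCL21 alone and 17 neither. At passage 0 they were together in 4 of 168 cells, with 21 and 22 holding 1 of them and 121 neither. With these labels taken from the same counts, and several LECs per donor, the cell counts are descriptions.

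**Figure D4:**
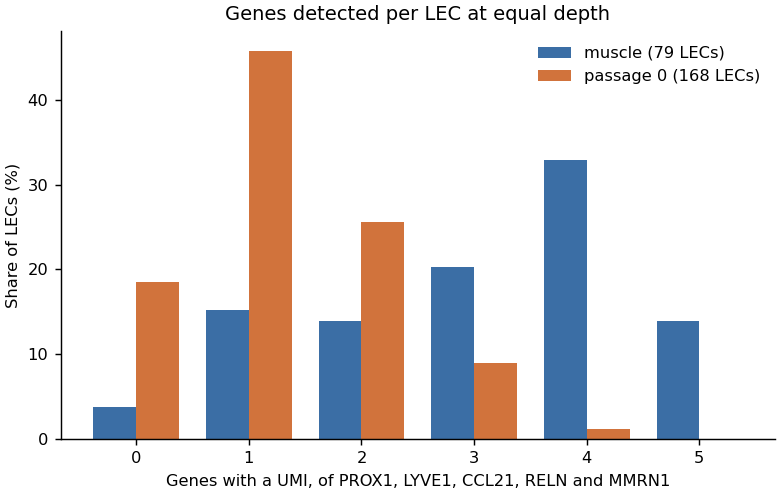
Share of LECs by the number of PROX1, LYVE1, CCL21, RELN and MMRN1 with a UMI after thinning to 2000 UMIs a cell, in muscle (79 LECs, blue) and passage 0 (168 LECs, orange). Muscle LECs peak at 4 genes (32.9%) and passage 0 LECs at 1 gene (45.8%).

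CCL21 was the most uneven member among LECs. In muscle the 10 LECs with most CCL21 held 72.6% of its 2956 UMIs and the highest cell held 649, while the median LEC had 3. The 10 highest cells held 34.7% of MMRN1 UMIs and 41.3% of LYVE1 UMIs. The 6 muscle donors with too few LECs for the fit spread more widely in CCL21 than the 4 in it, which ran from 2976 to 8897 CPM without TMM factors. CCL21 stood at 19660 in 8 LECs of donor 5 and 20960 in 5 LECs of donor 9, above all donors in the fit, and at 2373, 1106, 2319 and 140 in the 7, 2, 9 and 3 LECs of donors 1, 3, 6 and 2, below all of them. LYVE1 had 0 UMIs in those 3 cells of donor 2, and MMRN1 had 24.

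Lists of related genes were read in the same fit of LECs, where 14.8% of all genes tested were lower and 14.8% higher, and the counts below are descriptions beside those shares. Of 16 further lymphatic genes 7 passed the filter: 6 fell, led by PKHD1L1 (-5.14), the scavenger receptor STAB1 (-3.54), the tight junction gene CLDN11 (-2.56) and GPM6A (-2.48), and none rose. PKHD1L1 and ITGA9 of this list, GATA2, KLF4, TIE1, FLI1 and TAL1 of the next lists and S100B passed the filter only through muscle, and CXCR4, HHEX, ADM and VLDLR only through passage 0. Of 12 lymphatic transcription factors 6 were tested: KLF4 (-3.86), NR2F1 (-2.73) and GATA2 (-1.64) fell, and NR2F2 (-0.94), SOX18 (-0.26) and HHEX (0.18) were not called. Of 14 growth factors and receptors 8 were tested and 5 fell, led by the receptor TIE1 (-1.62), CALCRL (-1.58) and RAMP2 (-1.40), which together form a receptor for adrenomedullin, and the VEGF receptor KDR (-1.47). FLT4 was the fifth (-1.09).

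Of 12 pan-endothelial genes 9 were tested: FLI1 (-1.75), ECSCR (-1.53) and TAL1 (-1.28) fell, the junction gene CLDN5 rose (1.02), and PECAM1 (-0.30), CDH5 (-0.39), ERG (-0.42), ROBO4 (0.07) and EGFL7 (-0.05) were not called. Of 17 blood endothelial genes 2 were tested, CXCR4 (3.28) higher and EMCN (-1.16) lower. Of 16 partners of the members 2 were tested: HYAL2, a hyaluronidase, was not called (0.14), and VLDLR, a reelin receptor, had 0 UMIs in muscle LECs and 107 at passage 0, at least 5.28-fold higher with a floor of 3 counts over the group. The median log2 fold change was -2.48 over the 7 further lymphatic genes, -1.29 over the 6 transcription factors, -1.25 over the 8 receptors and -0.39 over the 9 pan-endothelial genes, beside 0.06 over all genes. These medians are of LECs alone. Most of the named lymphatic list genes that fell in LECs also had a lower mean in VECs at passage 0 than in muscle. KLF4 went from 921 to 10.6 CPM in VECs, GATA2 from 145.6 to 15.25, CALCRL from 431 to 58.2 and KDR from 549.6 to 164. FLT4 was nearly level there (2.58 and 2.43), and CLDN11 went from 1.618 to 6.195. Of the remaining lists of other cell types, S100B of the glial list fell (-4.20), and no gene of the SC, mural and lymphocyte lists passed the filter.

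The genes most like each member over the 18 groups of annotated type at muscle and passage 0 with at least 10 cells were sought among 12628 others by Pearson's r of log2(CPM + 1). MMRN1 was closest to FLT4 (r = 0.953), PKHD1L1 (0.915) and GPM6A (0.89), and LYVE1 to STAB1 (0.903), the macrophage mannose receptor gene MRC1 (0.827) and NRP2 (0.814). CCL21 was closest to SLC1A1 (0.97), RELN (0.951) and ZIC2 (0.934), and RELN to ZIC2 (0.984), SCN3A (0.974) and MANSC4 (0.968). PROX1 was closest to ARHGEF19 (0.894), FZD10 (0.885) and SOCS6 (0.883), and PDPN to EPDR1 (0.819) and the metallothioneins MT1E (0.813) and MT2A (0.795). Between members, r ran from 0.014 for LYVE1 with PDPN to 0.951 for CCL21 with RELN. The groups of a timepoint share a library, and several of these genes have under 100 UMIs in all.

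Beyond passage 0 the cultures held FAPs and SCs only, as unsorted cultures (donors 1, 2 and 9), sorted SCs (5, 6 and 10) and sorted FAPs (4, 7 and 8), and of the members PDPN alone remained abundant. PDPN in FAPs was 154 ± 40.5 CPM at passage 2 (n = 8), 195 ± 46.6 at passage 5 (n = 9) and 266 ± 80.8 at passage 8 (n = 9), and in SCs 170 ± 63.1 (n = 9), 158 ± 31.8 (n = 7) and 274 ± 52.2 (n = 4). Read within the same donor, PDPN in FAPs was higher at passage 5 than at passage 2 in 7 of 8 donors (lower in donor 8) and higher at passage 8 than at passage 5 in 8 of 9 (lower in donor 1). The pooled donors of neighbouring passages overlapped in FAPs. Within cultures of sorted FAPs the donors overlapped between passage 2 (111 to 169 CPM) and passage 5 (143 to 156), and not between passage 5 and passage 8 (188 to 214). The FAPs within cultures of sorted SCs likewise overlapped between passage 2 (97.6 to 224 CPM, 2 donors) and passage 5 (149.5 to 249), and not between passage 5 and passage 8 (289.8 to 392). In unsorted cultures the donors did not overlap between passage 2 (138 to 181 CPM) and passage 5 (214 to 258), and did between passage 5 and passage 8 (172 to 304). In SCs PDPN was higher at passage 5 than at passage 2 in 4 of 7 donors. By culture these were 3 of 3 with sorted SCs, 1 of 3 unsorted and 0 of 1 with sorted FAPs. From passage 5 to passage 8 PDPN in SCs was higher in 4 of 4 donors, where all donors of passage 8 lay above all of passage 5. Each passage is 1 library, and these values were not tested. CCL21 and MMRN1 had 0 UMIs in all cells of passages 2 to 8. The sorted cultures were gated by FACS for SCs or FAPs after 72 h, which leaves out LECs by design. Only the unsorted cultures of donors 1, 2 and 9 bear on LECs kept without sorting.

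**Figure D5:**
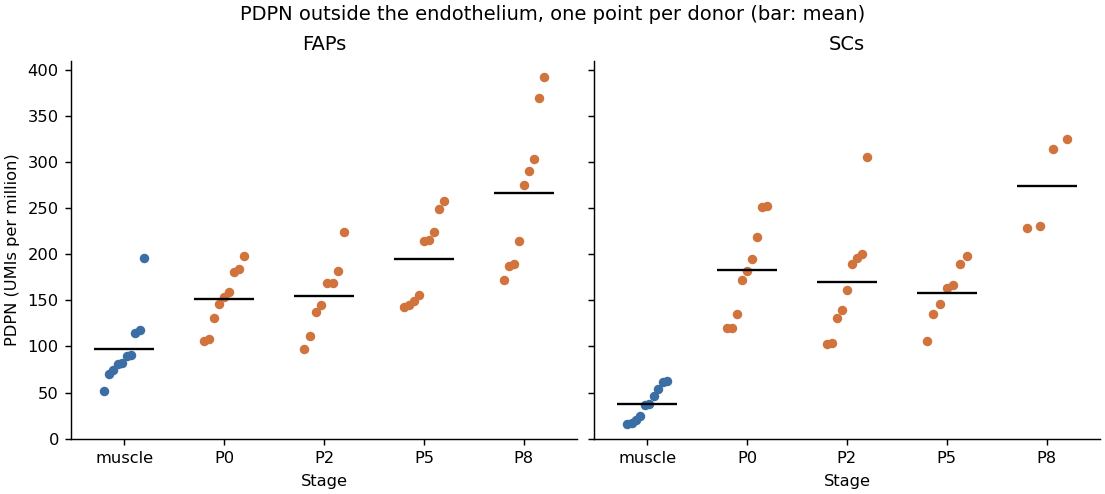
PDPN in CPM in FAPs (left) and SCs (right) of muscle and of passages 0 (P0) to 8 (P8), with 1 point per donor with at least 10 cells and a bar at the mean. Muscle SCs lie below every cultured donor, while FAP donors of neighbouring stages overlap when culture types are pooled.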

How the data were processed

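The authors deposited unnormalised UMI counts for 5 libraries, produced with Cell Ranger 6.0.1 on ARS-UCD1.2, with run 1 and run 2 of a timepoint combined. Donors (demuxlet) and cell types were taken from the authors' deposited cell table after their quality filter. All cells kept there carry a single-donor call, and doublets within a donor were not sought. Cells held a median of 4184 to 27239.5 UMIs per library, and Timepoints 1 and 2 shared 7 barcodes. The members and gene lists were chosen with earlier results of these data known.

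UMI counts were summed per donor and type (at least 10 cells) and tested with edgeR 4.0.16 in R 4.3.3 (TMM, filterByExpr, robust quasi-likelihood test, 2-sided, Benjamini-Hochberg adjustment over all genes tested), with SE taken from the F statistic. The fits were run on simulated counts in which only well-counted genes were changed, so that run is no check of genes with few UMIs. Descriptions used Python 3.11.15 and SciPy 1.17.1. Named list genes were up to 4 called per list and direction with the largest change, and the 3 most alike genes per member. Differences of changes were read for members with at least 50 UMIs in the other type. Donors pair the timepoints because the same animals were sampled. Same-donor deviations correlated from -0.01 to 0.05 in LECs over 3 donors and from -0.05 to 0.16 in VECs over 9. Alternatives were DESeq2 1.42.0, no filter, donor block, thinning, 5 or 20 cells, and leaving out each donor.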

Additional observations from a re-analysis of the deposited data

Results flagged for a closer look

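Of 31 groups of donors examined for a donor far from the others, 7 were picked out. The limits pick about 1 in 20 groups of normally spread values. Several groups of VECs hold few UMIs and many donors at 0, where that rate does not apply, so the count is not read as an excess. In muscle LECs PROX1 of donor 8 was 161 CPM from 11 UMIs, with the next donor at 223 from 16. In passage 0 LECs CCL21 of donor 6 was 655 CPM, with the next at 221. In VECs PROX1 of donor 1 at passage 0 was 1.98 CPM, and CCL21 and MMRN1 of donor 10 in muscle were 7.25 and 10.9 CPM, each from 2 to 6 UMIs. PDPN of donor 4 in muscle FAPs was 195 CPM, with the next at 107, and PROX1 of donor 1 in passage 0 SCs was 3.35 CPM, with the next at 2.07.

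PROX1 fell less in culture in LECs than in SCs (a difference of 2.74 on the log2 scale), in a comparison added after the results were seen. In each type alone it passed the filter only through muscle. It had no test in thinned SCs or in LECs with at least 5 cells. PDPN in LECs against VECs passed in the fit without a donor block (-1.68), but not with the block (-1.36, adjusted p = 0.105), with thinning (-0.73, adjusted p = 0.499) or without donor 10 (-1.50, adjusted p = 0.0707). PDPN in LECs against monocytes/macrophages (-5.00) rests on 2 UMIs in muscle macrophages, where PDPN alone did not pass the filter.

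Passages 2 to 8 lie outside the comparisons of muscle with passage 0 and still held member UMIs: 88519 of PDPN, 446 of LYVE1, 391 of PROX1 and 12 of RELN. LYVE1 there was highest in FAPs of unsorted cultures at passage 8, at 5.30 CPM in 39 of 746 cells. PROX1 UMIs were mostly in SCs of sorted SC cultures, with 230 at passage 2, where these cultures held 3299 of 3979 SCs. At passage 2 PROX1 was 2.64 CPM in SCs of sorted SC cultures and 1.36 in SCs of unsorted cultures. At passage 5 the order was the other way, at 1.67 and 2.13 CPM.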

How the results depend on the processing

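Of 164 refits of single members under an alternative, 163 kept their direction and 153 their side of the call, and in 5 more the member no longer passed the filter and had no test: PROX1 in LECs with at least 5 cells, PROX1 in SCs thinned, and PDPN in VECs thinned, without donor 4 and without donor 10. The exception in direction was MMRN1 in LECs against FAPs, a difference of -0.03 that became 0.15 with at least 5 cells and passed in neither. Leaving out each donor gave 650 to 935 genes called in LECs, 1880 to 2278 in VECs and 311 to 413 for their difference. With no filter on low counts the genes called were 1863 in LECs (899 with it), 5030 in VECs (2071), 6925 in FAPs (3997), 5286 in SCs (1789), 4216 in SMMCs (1257) and 3389 in monocytes/macrophages (1003), and PDPN in FAPs passed the fold limit (1.05), while thinning lowered it to 0.38 (adjusted p = 0.0759). Thinning to the smallest UMI total gave 348, 1176, 1640, 531, 471 and 482, and 168 for the difference of LECs and VECs. At least 5 cells gave 294 in LECs, and at least 20 could not be run for LECs, since no muscle donor has so many. The replicate block, which also drops donors without both stages, gave 253 for the difference of LECs and VECs and changed no other member's call among 20. PDPN in LECs against SCs passed with DESeq2 (-1.14) and with at least 5 cells (-1.10). The causes were not tested. All 90 recomputed LEC levels stayed within 1 SD. Most of them left out a single donor, which cannot by itself move a mean by 1 SD, so that count is no check. Of 24 shares of LECs with a UMI, 16 left their interval when cells were thinned to 1000 UMIs or not thinned, while 5 of 6 members were in fewer LECs at passage 0 in each case. In LECs PDPN rests on 4 muscle donors with 7 to 20 UMIs each.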
